A study of Mus musculus with 8 samples.

Results

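The collagen genes of the postnatal day 3 (P3) mouse cortex were compared between mutants that lack the BAF scaffolding subunits BAF155 and BAF170 and their controls. The collagen genes were all protein-coding genes whose symbol is Col, a type number, the letter a and a chain number. Of the 48709 genes counted in the files, 44 met this rule. The rule itself uses no measured value, although the family was chosen with earlier results of these data known. The RNA sequencing covered 4 control and 4 mutant (dcKO_hGFAP-Cre) cortices on the C57BL/6J background, taken as total RNA, from the dorsal telencephalon (dTel) according to the methods. The mutants carried BAF155 fl/fl and BAF170 fl/fl alleles with hGFAP-Cre, a transgene in which a human GFAP promoter drives the recombinase in dTel progenitors. The methods give the controls of the study as BAF155 fl/+ and BAF170 fl/+ with the same Cre, whereas the sample labels describe them as wild type, so the exact control genotype behind these libraries is uncertain. Cre activity begins in neural progenitors of the dTel, so cells of other origin in the dissected cortex (meninges, vessels, microglia) need not carry the deletion, and the mutants die soon after birth. Whether each library came from 1 animal is not stated, and the p-values below measure the spread between these libraries.

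Collagens are proteins of 3 chains wound into a triple helix, most of them secreted, and each gene encodes 1 type of chain. Fibrillar collagens (types I, II, III, V, XI, XXIV and XXVII) assemble into the rope-like fibres of skin, bone, cartilage and connective tissue, and in the brain types I and III are best known from the meninges and large vessels. Type IV collagens do not form fibres but build the sheet-like network of basement membranes, which in the brain lie under the pia and around blood vessels. The other types link fibres (FACIT collagens), form beaded filaments (type VI), sit at basement membrane edges (types VII, XV, XVII and XVIII) or span the cell membrane (types XIII, XXIII and XXV). Type XVII also spans the cell membrane but is kept here with the basement membrane edges.

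Libraries held 21126713 to 31805395 counts in control and 22002784 to 32110285 counts in dcKO_hGFAP-Cre, so that 3 counts corresponded to 0.0906 to 0.148 CPM. CPM is the count of a gene per 1000000 counts of a library after TMM scaling. Smarcc1 (BAF155) fell from 159 to 81.2 CPM and Smarcc2 (BAF170) from 483 to 283 CPM in the means of 4 libraries. The labels place replicates 1 and 2 of each group on lane 5, whereas lane 6 held both replicates numbered 3 and lane 7 both numbered 4. The labelled tissue was checked with marker lists, and all 10 markers of cortical projection neurons were present (sum 1876 to 2079 CPM in control and 997 to 1176 CPM in the mutant, 8 of 10 called lower). Of the other lists, 8 of 9 markers of oligodendrocyte precursors were called lower, while 10 of 11 of GABAergic interneurons, 6 of 12 of striatal neurons and 6 of 8 of microglia were called higher. Over all genes tested, 18.9% were called lower and 18.6% higher. Of 5 blood cell markers 0 were called by edgeR (0 also at an unadjusted p under 0.05, by DESeq2 and by limma-voom). Replicates 1 and 2 of dcKO_hGFAP-Cre stood apart in the choroid plexus transcript Ttr, with 584 and 1128 CPM against at most 15.8 CPM in the other 6 libraries. The summed level of 18 meningeal fibroblast markers varied more within the groups than between them, from 100 to 246 CPM in control and from 60.4 to 388 CPM in dcKO_hGFAP-Cre libraries. Since the tissue is bulk, fewer cells of a type and less RNA per cell cannot be told apart.

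Of the collagen genes 16 differed between the groups, most of them upwards. After a filter on low counts, 42 of the 44 collagen genes were tested together with all other genes (16525 in total). In dcKO_hGFAP-Cre cortex, 12 collagens were higher and 4 were lower (quasi-likelihood F test of edgeR, threshold 0.05 after Benjamini-Hochberg adjustment over all genes tested), and at an unadjusted p under that threshold 13 were higher and 6 lower. The 12 higher genes are 28.6% of the tested collagens, where 18.6% of all genes were called higher, and the 4 lower genes are 9.52%, where 18.9% of all genes were called lower. In both directions together, 38.1% of collagens and 37.5% of all genes were called. The 4 dcKO_hGFAP-Cre libraries lay above all 4 control libraries in 10 collagens (16.7% of all genes) and below them in 3 (17.7% of all genes). The median log2 fold change was 0.16 over the collagens and 0.02 over all genes. All 16 called collagens had the same sign within each of the 3 lanes. For those whose groups did not overlap this was fixed in advance, so it adds little to the calls. Without both libraries high in Ttr 7 collagens were called higher and 3 lower, and without the 3 libraries with the highest meningeal marker sums 7 were called higher and 5 lower. Calls over all genes fell too, from 3074 higher and 3128 lower to 1388 and 1581 without the Ttr libraries. They were 1489 higher and 1742 lower without the meningeal ones. These counts rest on fewer libraries, and the second choice was made after seeing the marker sums. The genes not tested were Col10a1, the network collagen of growth plate cartilage, with 1 to 6 counts per library, and Col17a1, a transmembrane collagen of skin hemidesmosomes, with 4 to 10 counts per library.

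**Figure D1:**
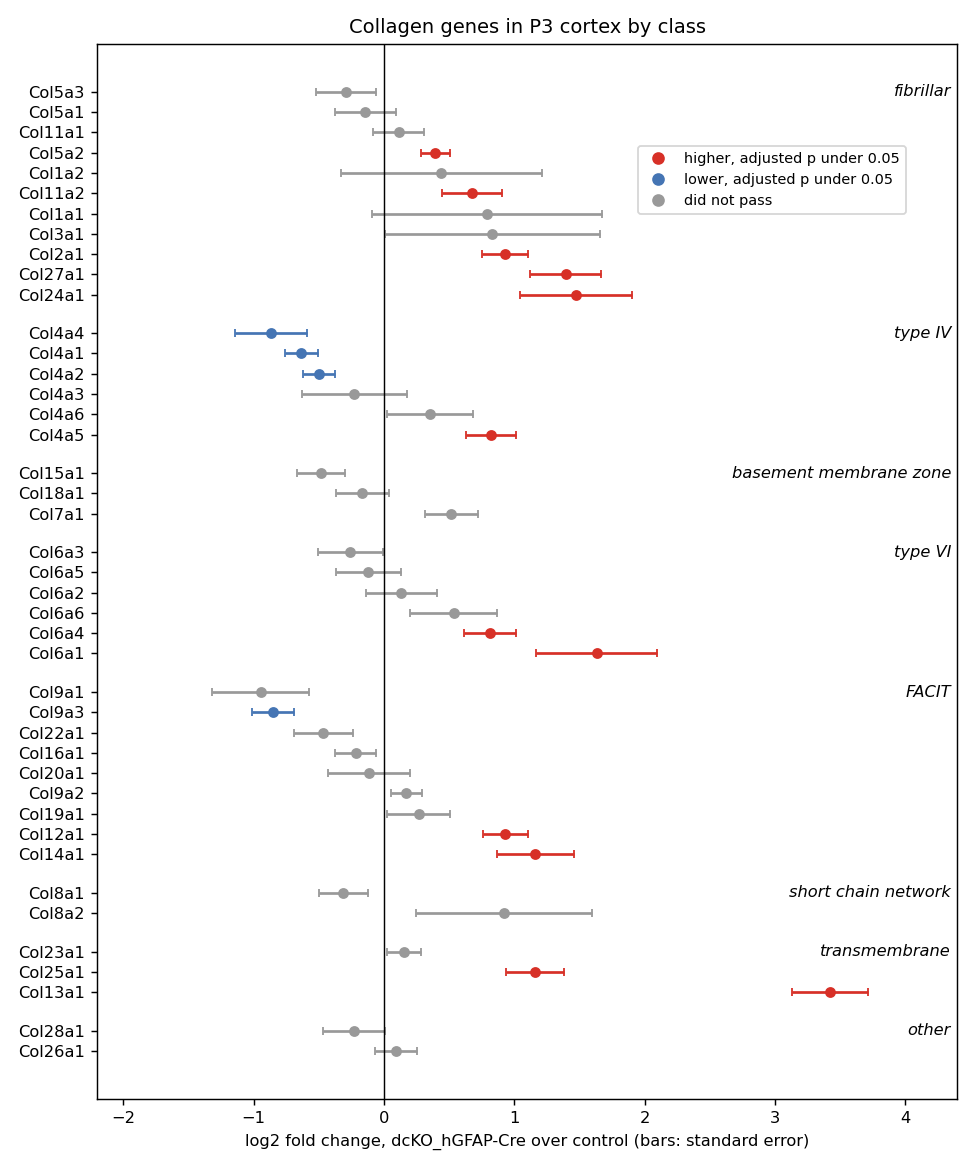
Log2 fold change of the 42 tested collagen genes, dcKO_hGFAP-Cre over control at P3 (x axis, bars are standard errors, 4 libraries per group), with genes grouped by collagen class on the y axis. Red points are the 12 genes called higher, blue points the 4 called lower and grey points the 26 that did not pass. Col13a1 lies farthest to the right at 3.42. Of the 4 blue points 3 are type IV chains, of which 6 were tested, where 18.9% of all genes were called lower. The groups of Col4a4, 1 of these 3, overlapped.

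The classical fibrillar chains of types I and III gave no call, and their levels varied widely between libraries of the same group. Col1a1, which encodes the main chain of type I collagen (chromosome 11, from 94936224 to 94953042, mm10), was at 7.18, 5.52, 27.2 and 6.84 CPM in control replicates 1 to 4 and at 36.6, 10.8, 31.1 and 3.29 CPM in dcKO_hGFAP-Cre replicates 1 to 4. Col1a2, its partner chain, was at 22.5, 13.5, 47.3 and 15.8 CPM in control and at 62.7, 20.8, 46.0 and 5.92 CPM in the mutant. Col3a1, the single chain of type III collagen, was at 15.05, 10.8, 32.9 and 10.9 CPM in control and at 60.3, 20.4, 40.7 and 3.77 CPM in the mutant. For all 3 chains, control replicate 3 was the highest control, mutant replicates 1 and 3 were high, and mutant replicate 4 was the lowest of the 8 libraries, so the groups overlapped. The log2 fold changes were 0.79 for Col1a1 (standard error 0.88, adjusted p = 0.526, edgeR), 0.44 for Col1a2 (standard error 0.77, adjusted p = 0.691, edgeR) and 0.83 for Col3a1 (standard error 0.82, adjusted p = 0.469, edgeR). On the log2(CPM + 0.5) scale the difference for Col1a1 was 1.59 in lane 5, 0.19 in lane 6 and -0.95 in lane 7, so its sign was not the same in all lanes. The highest dcKO_hGFAP-Cre library was 11.1 times the lowest for Col1a1, 10.6 times for Col1a2 and 16.0 times for Col3a1. A range of at least 5 times was reached by 4 collagens in all, the other being Col8a2, and by 1.49% of all genes.

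The summed level of markers of meningeal fibroblasts, which are known for making types I and III collagen, moved with these chains. The sum of the 18 markers was 153, 116, 246 and 100 CPM in control replicates 1 to 4 and 388, 144, 306 and 60.4 CPM in dcKO_hGFAP-Cre replicates 1 to 4. Beside it, the sum of Col1a1, Col1a2 and Col3a1 was 44.7, 29.9, 107 and 33.5 CPM in control and 160, 52.1, 118 and 13.0 CPM in the mutant. The 4 mutant libraries stood in the same order in both sums, and control replicate 3 was the highest control in both. The ratio of the collagen sum to the marker sum was 0.292, 0.258, 0.437 and 0.334 in control and 0.411, 0.361, 0.385 and 0.215 in the mutant, a narrower range than that of either sum. Igf2, the most abundant of the markers and the largest single part of the sum in every library, was at 83.3, 63.6, 143 and 49.8 CPM in control and at 227, 85.3, 177 and 24.8 CPM in the mutant. The sum therefore weighs this gene most, and Igf2 ordered the libraries within each group as the sum did. Cemip, a hyaluronan-degrading protein and the next most abundant marker, did not follow the sum, with 13.9, 20.4, 24.6 and 18.8 CPM in control and 16.2, 13.8, 13.4 and 19.7 CPM in the mutant, where replicate 4 was the highest. Dcn, which encodes the fibre-binding proteoglycan decorin and came next, was at 8.24, 5.18, 16.1 and 5.35 CPM in control and at 32.4, 9.32, 28.1 and 3.17 CPM in the mutant. Of the 18 markers 0 were called lower by edgeR (0 also at an unadjusted p under 0.05, by DESeq2 and by limma-voom) and 2 were called higher, Twist1 (log2 fold change 2.67) and Asgr1 (1.40), which are named after their values were seen, and no marker was at 0 in all libraries. Over all genes 18.9% were called lower and 18.6% higher. Without the 3 libraries highest in the marker sum (control replicate 3 and mutant replicates 1 and 3), the log2 change was 0.09 for Col1a1, -0.39 for Col1a2 and -0.04 for Col3a1. The same libraries were also the highest for each of these chains, so these values cannot show what part the markers' cells had. The part of the markers' cells in the collagen values was not tested.

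**Figure D2:**
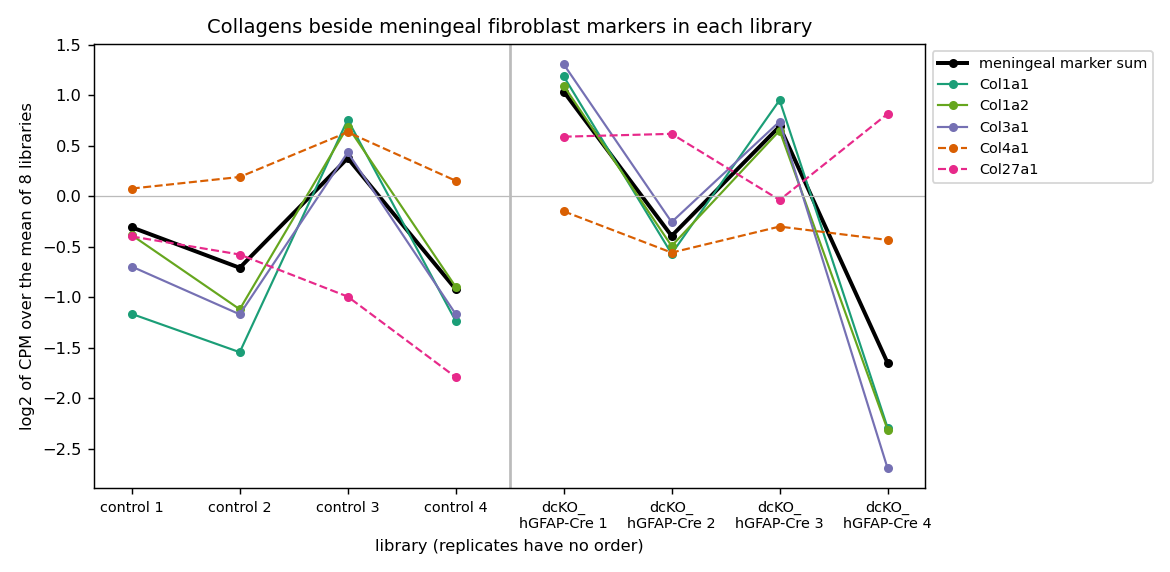
Level of 5 collagen genes and of the summed meningeal fibroblast markers in each library, as log2 of CPM over the mean of the 8 libraries (y axis), with the 8 libraries on the x axis; lines join libraries of 1 group only to help follow a gene, and replicates have no order. Col1a1, Col1a2 and Col3a1 (solid) run with the black marker sum from library to library, whereas Col4a1 and Col27a1 (dashed) lie apart between the groups; Col4a1 shares the peak of the marker sum at control 3 and its 2 highest mutant libraries, at a smaller range.

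Among the remaining fibrillar chains 5 rose in the mutant. The highest mutant library was 1.26 to 2.80 times the lowest for these 8 chains and 10.6 to 16.0 times for types I and III, whereas in control the ranges were 1.23 to 3.52 times and 3.04 to 4.93 times and overlapped. Of the 11 fibrillar chains 5 (45.5%) were called higher and 0 lower by edgeR, where 18.6% of all genes were called higher and 18.9% lower. The lower calls were 0 also at an unadjusted p under 0.05, by DESeq2 and by limma-voom. In 3 of the 5 the groups did not overlap, and in 16.7% of all genes the mutant libraries lay above all controls. Col27a1, a fibrillar chain of cartilage with a shortened helix (chromosome 4, from 63214004 to 63334991), was at 4.46, 3.94, 2.95 and 1.70 CPM in control and at 8.85, 9.03, 5.73 and 10.4 CPM in the mutant. Each mutant library exceeded each control, and the rise was 2.63-fold (log2 fold change 1.39, standard error 0.27, adjusted p = 0.00218, edgeR). Col2a1, the chain of cartilage type II collagen (chromosome 15, from 97975602 to 98004695), was at 4.97, 3.01, 3.55 and 3.26 CPM in control and at 7.01, 7.41, 6.07 and 7.67 CPM in the mutant. Again no mutant library reached down to a control, and the rise was 1.91-fold (log2 fold change 0.93, standard error 0.18, adjusted p = 0.00151, edgeR). Both calls held with every library left out in turn, without the libraries high in Ttr and without those high in meningeal markers.

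Col24a1, a minor fibrillar chain of bone (chromosome 3, from 145292472 to 145552011), was at 5.61, 2.91, 1.59 and 2.08 CPM in control and at 7.74, 7.63, 4.71 and 13.2 CPM in the mutant. Its groups overlapped, since control replicate 1 lay above mutant replicate 3, and the log2 change was 1.47 (standard error 0.43, adjusted p = 0.0248, edgeR). Col11a2, a type XI chain that helps to set fibre width in cartilage, was at 12.8, 9.96, 6.37 and 7.60 CPM in control and at 16.7, 14.4, 9.72 and 17.4 CPM in the mutant. The groups overlapped here too, and the log2 change was 0.67 (standard error 0.23, adjusted p = 0.0380, edgeR). Col5a2, a type V chain that is built into type I fibres, was at 24.3, 22.2, 24.7 and 20.1 CPM in control and at 34.5, 30.3, 25.8 and 29.4 CPM in the mutant. The groups did not overlap, although mutant replicate 3 lay only just above the highest control, and the log2 change was 0.39 (standard error 0.11, adjusted p = 0.0145, edgeR). The 3 calls depended on single libraries, and none of them held without both libraries high in Ttr (adjusted p = 0.106 for Col24a1, 0.237 for Col11a2 and 0.187 for Col5a2, edgeR). The adjusted p of Col24a1 became 0.0614, 0.0560 and 0.0751 without control replicates 2, 3 and 4 and 0.0550 and 0.0523 without mutant replicates 2 and 4. That of Col11a2 became 0.0715, 0.0991 and 0.114 without control replicates 2, 3 and 4 and 0.114, 0.0901 and 0.101 without mutant replicates 1, 2 and 4. That of Col5a2 became 0.0511 without control replicate 4 and 0.0610 without mutant replicate 1. Without the 3 libraries high in meningeal markers it was 0.0513 for Col11a2 and 0.0617 for Col5a2, and without a filter on low counts 0.101 for Col24a1 and 0.0692 for Col11a2.

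The other 3 fibrillar chains did not pass the test. Col5a1, the usual partner of Col5a2, was at 29.1, 15.3, 17.9 and 12.6 CPM in control and at 19.8, 16.1, 13.4 and 18.4 CPM in the mutant (log2 fold change -0.14, standard error 0.24). Col5a3, another type V chain, was at 2.53, 2.02, 1.56 and 1.67 CPM in control and at 2.05, 1.31, 1.33 and 1.63 CPM in the mutant (log2 fold change -0.29, standard error 0.23). Col11a1, the partner of Col11a2, was at 23.7, 18.6, 14.3 and 12.3 CPM in control and at 17.7, 14.5, 20.0 and 21.9 CPM in the mutant (log2 fold change 0.11, standard error 0.20). The groups overlapped for each of them. Summed over all 11 chains, the fibrillar level was 134 ± 39.6 CPM in control and 191 ± 62.9 CPM in the mutant (SD, n = 4), with overlapping groups, and types I and III made up 13.0 to 160 CPM of it. Markers of cartilage and bone were low: of 11 such genes 7 passed the filter, their sum was 14.8 to 18.0 CPM in control and 12.01 to 16.0 CPM in the mutant, and 3 were called higher and 1 lower. Over all genes 18.6% were called higher and 18.9% lower. The share of cartilage or bone in the fibrillar values was not tested.

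**Figure D3:**
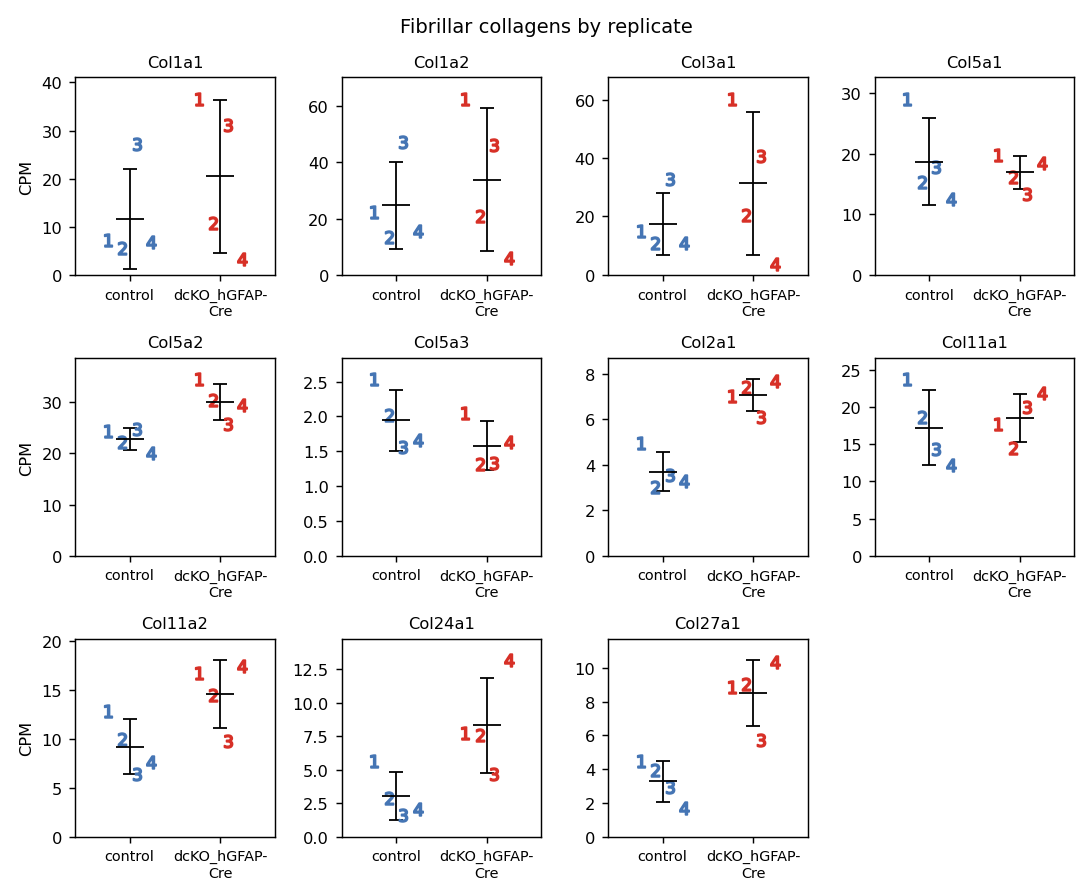
Level of each of the 11 fibrillar collagen genes in CPM (y axis, from 0) in control (blue) and dcKO_hGFAP-Cre (red) libraries, where the digits are the replicate numbers and the black bars give mean and SD of 4 libraries. Col1a1, Col1a2 and Col3a1 spread widely in both groups with mutant replicate 4 at the bottom, whereas the red digits of Col2a1, Col5a2 and Col27a1 all lie above the blue ones.

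Basement membrane collagens went the other way in their most abundant chains: Col4a1 and Col4a2 fell, while Col4a5 rose. Type IV molecules are made of α1 and α2 chains in nearly all basement membranes, and of α3, α4 and α5 or α5 and α6 chains in a few. The 6 genes lie in 3 pairs, each transcribed in opposite directions from neighbouring starts, and the sequence shared or spanned by the starts is shown for the 2 closest pairs, Col4a1 with Col4a2, which fell together, and Col4a4 with Col4a3, of which Col4a4 was called and Col4a3 was not. In the annotation of GRCm38 (the mm10 build) the first exons of Col4a1 (minus strand, chromosome 8, from 11198423 to 11312826) and Col4a2 (plus strand, from 11312805 to 11449287) overlap by 22 bases. The starts of Col4a4 (minus strand, chromosome 1, from 82448423 to 82586849) and Col4a3 (plus strand, from 82586921 to 82722059) are separated by 71 bases without an annotated exon. Those of Col4a6 (minus strand, chromosome X, from 141165403 to 141474076) and Col4a5 (plus strand, from 141475385 to 141689234) are separated by 1308 bases, which are not printed here. The 22 shared bases (chr8:11312805-11312826, plus strand, with the motif GGGCGG in capitals) and the 71 bases between Col4a4 and Col4a3 (chr1:82586850-82586920, plus strand) read 5′ to 3′, from the RefSeq promoter table for GRCm38.p6:
Col4a1-Col4a2 overlap: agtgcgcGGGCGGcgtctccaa
Col4a4-Col4a3 spacer: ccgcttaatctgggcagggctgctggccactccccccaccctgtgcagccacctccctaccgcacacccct

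Col4a1 was at 152, 164, 223 and 160 CPM in control and at 130, 97.8, 117 and 107 CPM in the mutant. All 4 mutant libraries lay below all controls, and the fall was 1.55-fold (log2 fold change -0.63, standard error 0.13, adjusted p = 0.00225, edgeR). Col4a2 was at 109, 128, 161 and 124 CPM in control and at 108, 80.8, 95.9 and 85.9 CPM in the mutant. Its groups were separated by the small gap between control replicate 1 and mutant replicate 1, and the fall was 1.41-fold (log2 fold change -0.50, standard error 0.12, adjusted p = 0.00699, edgeR). Both falls kept their call with every library left out in turn, with log2 fold changes from -0.71 to -0.50 for Col4a1 and from -0.58 to -0.38 for Col4a2. Without the 3 libraries high in meningeal markers the changes were -0.63 and -0.53. Control replicate 3 was the highest library for both chains and mutant replicates 1 and 3 were the highest mutants, as in the meningeal marker sum, but no mutant library lay above a control.

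Col4a5 was at 16.7, 13.7, 19.3 and 10.5 CPM in control and at 34.2, 23.9, 27.3 and 20.9 CPM in the mutant. Mutant libraries all exceeded the controls, and the rise was 1.77-fold (log2 fold change 0.82, standard error 0.19, adjusted p = 0.00657, edgeR). Its pair gene Col4a6 was at 4.00, 2.91, 6.31 and 2.46 CPM in control and at 7.35, 3.64, 5.94 and 3.26 CPM in the mutant, with overlapping groups (log2 fold change 0.35, standard error 0.33, adjusted p = 0.428, edgeR). Both genes of this X-linked pair ordered the libraries exactly as the meningeal marker sum did within each group, which held for no other collagen and for 0.266% of all genes. Col1a1, Col1a2 and Col3a1 departed from that order only in control replicates 2 and 4, which for Col3a1 were at 10.84 and 10.86 CPM. Without the 3 libraries high in those markers, Col4a5 was still called higher (log2 fold change 0.72, adjusted p = 0.0226, edgeR), and without both libraries high in Ttr it was not (0.68, adjusted p = 0.0601, edgeR).

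Col4a4 was at 3.18, 3.35, 2.56 and 2.15 CPM in control and at 1.33, 1.61, 2.32 and 0.875 CPM in the mutant. Mutant replicate 3 lay within the control range, and the log2 change was -0.87 (standard error 0.28, adjusted p = 0.0272, edgeR). The call was lost without control replicates 1 (adjusted p = 0.0579) or 2 (0.0782), without mutant replicates 1 (0.0698), 2 (0.0504) or 4 (0.0632), without both libraries high in Ttr (0.153) and with library totals in place of TMM (0.0520), all from edgeR. Col4a3, across the 71 bases, was near the limit of detection at 0.598, 0.296, 0.332 and 0.486 CPM in control and 0.513, 0.424, 0.409 and 0.151 CPM in the mutant (log2 fold change -0.23, standard error 0.40). A non-coding transcript on the opposite strand overlaps the exons of Col4a3 by 563 bases, and without a stated strand setting their reads cannot be told apart.

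Of the 6 type IV chains 3 (50%) were called lower and 1 (16.7%) higher by edgeR, beside 18.9% and 18.6% of all genes. Summed over the 6 chains, the type IV level was 285, 313, 412 and 300 CPM in control and 281, 208, 249 and 218 CPM in the mutant. The means were 328 ± 57.7 and 239 ± 32.9 CPM (SD, n = 4), and the groups did not overlap, with mutant replicate 1 just below control replicate 1. In a list of 12 endothelial markers 7 were called lower and 0 higher by edgeR, where 18.9% of all genes were called lower and 18.6% higher. The higher calls were 0 also at an unadjusted p under 0.05, by DESeq2 and by limma-voom. The sum of the 12 markers was 339 to 410 CPM in control and 185 to 311 CPM in the mutant, without overlap. The most abundant of them were Slco1c1, a thyroid hormone transporter, which fell from a mean of 74.3 to 49.2 CPM, Cldn5, a tight junction protein, with 67.5 and 60.7 CPM (not called), and Kdr, a VEGF receptor, which fell from 45.9 to 29.9 CPM. Among 11 pericyte and smooth muscle markers 3 were called lower. Of these, Cspg4 is also on the list of oligodendrocyte precursor markers, where it counts among the lower ones. The summed level of the 11 markers was 322 ± 23.2 CPM in control and 307 ± 43.3 CPM in the mutant (SD, n = 4) with overlapping groups. The part of vessel cells in the type IV values was not tested.

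**Figure D4:**
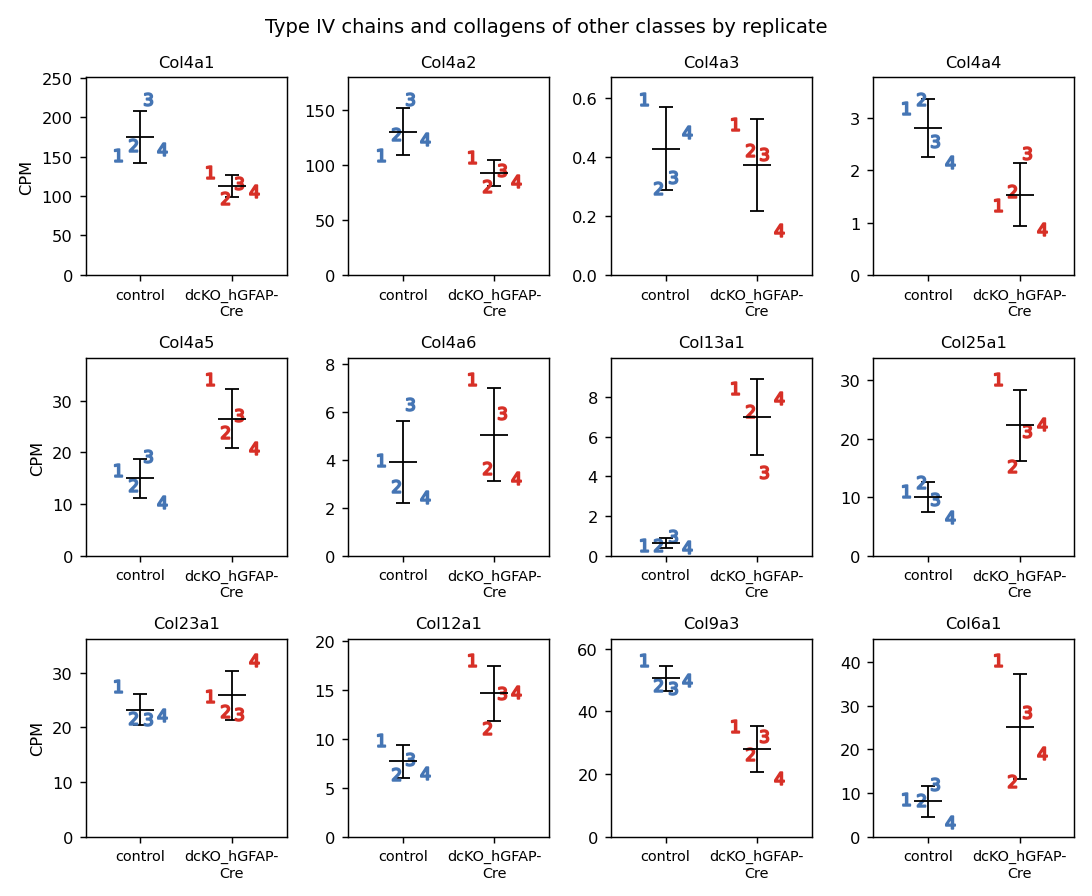
Level of the 6 type IV chains and of 6 collagens of other classes in CPM (y axis, from 0) in control (blue) and dcKO_hGFAP-Cre (red) libraries, where the digits are the replicate numbers and the black bars give mean and SD of 4 libraries. The red digits lie below the blue ones for Col4a1, Col4a2 and Col9a3, above them for Col4a5, Col13a1, Col25a1, Col12a1 and Col6a1, and among them for Col4a3, Col4a4, Col4a6 and Col23a1.

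Of the 3 tested collagens at basement membrane edges 0 passed the edgeR test, 1 lower and 1 higher had an unadjusted p under 0.05, and 1 was called lower by DESeq2 (Col15a1) and 0 by limma-voom. Over all genes 37.5% were called by edgeR in either direction, and 3 genes are too few to read against that share. Col15a1, which lines vessel basement membranes, was at 28.3, 17.8, 17.5 and 16.4 CPM in control and at 13.4, 11.9, 13.3 and 18.2 CPM in the mutant (log2 fold change -0.49, standard error 0.19, adjusted p = 0.0566, edgeR). Mutant replicate 4 was the only mutant library above any control, and the adjusted p was 0.0241 without it and 0.0434 without control replicate 4. Col18a1, whose C-terminal fragment is endostatin, ranged from 18.8 to 32.2 CPM in control and from 14.0 to 26.0 CPM in the mutant (log2 fold change -0.17). Col7a1, the chain of the anchoring fibrils of skin, was at 4.28, 2.91, 3.62 and 3.09 CPM in control and at 6.67, 3.69, 4.54 and 5.01 CPM in the mutant (log2 fold change 0.52, standard error 0.20, adjusted p = 0.0627, edgeR). Its adjusted p was 0.0394 without control replicate 1, 0.0374 without mutant replicate 2 and 0.0302 with library totals in place of TMM.

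Type VI collagen, a filament collagen around cells, differed between its chains. Col6a1 (chromosome 10, from 76708792 to 76726168) was at 8.65, 8.43, 12.02 and 3.44 CPM in control and at 40.4, 12.8, 28.5 and 19.3 CPM in the mutant. Every mutant library exceeded every control, with mutant replicate 2 only slightly above control replicate 3, and the rise was 3.10-fold (log2 fold change 1.63, standard error 0.46, adjusted p = 0.0280, edgeR). Its partner Col6a2 lies on the same chromosome (from 76595762 to 76623630) and was at 11.9, 9.61, 15.9 and 10.2 CPM in control and at 20.5, 10.5, 13.4 and 8.21 CPM in the mutant (log2 fold change 0.13, standard error 0.27, adjusted p = 0.727, edgeR). Col6a3, the longest chain of the classical molecule, was at 5.48 to 8.23 CPM in control and 3.35 to 8.38 CPM in the mutant (log2 fold change -0.26). Col6a4, one of the later found chains related to Col6a3, was nearly constant in control at 1.93, 2.02, 1.83 and 1.91 CPM and was at 4.45, 2.50, 3.45 and 3.11 CPM in the mutant. The groups did not overlap, and the log2 change was 0.81 (standard error 0.20, adjusted p = 0.00741, edgeR). Transcripts on the opposite strand overlap its exons by 162 and 127 bases. The call of Col6a1 was lost without control replicates 1 (adjusted p = 0.0597) or 2 (0.0580) and without mutant replicate 3 (0.0670) or a filter on low counts (0.0769), and without the 3 libraries high in meningeal markers the adjusted p was 0.0586 for Col6a1 and 0.187 for Col6a4, all from edgeR. Col6a5 and Col6a6, the remaining chains of this class, lay between 0.345 and 3.36 CPM and did not pass.

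Among the 9 FACIT collagens, which bind to the surface of fibres, 2 rose (22.2%) and 1 fell (11.1%). These shares stand beside 18.6% of all genes called higher and 18.9% called lower. Col12a1 (chromosome 9, from 79598991 to 79718831) was at 9.89, 6.36, 7.94 and 6.49 CPM in control and at 18.0, 11.1, 14.6 and 14.8 CPM in the mutant. Its groups did not overlap, and the rise was 1.91-fold (log2 fold change 0.93, standard error 0.17, adjusted p = 0.00146, edgeR). Col14a1, a close relative of Col12a1 (chromosome 15, from 55307750 to 55520803), was at 0.874, 1.18, 1.33 and 0.764 CPM in control and at 3.33, 2.12, 2.59 and 1.33 CPM in the mutant. Mutant replicate 4 lay at the upper edge of the controls, and the rise was 2.24-fold (log2 fold change 1.16, standard error 0.30, adjusted p = 0.00907, edgeR). The adjusted p of Col14a1 was 0.0948 without both libraries high in Ttr and 0.104 without the 3 libraries high in meningeal markers, where Col12a1 kept its call (0.00996 and 0.0329, edgeR).

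The type IX chains, which coat type II fibres in cartilage, did not move together. Col9a3 (chromosome 2, from 180597790 to 180622189) was at 56.3, 48.3, 47.5 and 50.1 CPM in control and at 35.3, 26.3, 32.0 and 18.6 CPM in the mutant. No mutant library reached the controls, and the fall was 1.80-fold (log2 fold change -0.85, standard error 0.16, adjusted p = 0.00211, edgeR). Its exons overlap those of Tcfl5 on the opposite strand by 234 bases. Tcfl5 was at 2.63 ± 0.343 CPM in control and 4.14 ± 0.934 CPM in the mutant (SD, n = 4). Without a stated strand setting, reads in the overlap cannot be assigned to either gene, and its part in the 2 changes was not tested. Col9a1 was at 2.95, 2.56, 3.29 and 3.99 CPM in control and at 0.855, 1.69, 3.21 and 0.875 CPM in the mutant (log2 fold change -0.95, standard error 0.37, adjusted p = 0.0662, edgeR). Mutant replicate 3 was the only mutant library within the control range, and without it the log2 fold change of Col9a1 was -1.50 (adjusted p = 0.00123, edgeR). With all libraries, Col9a1 was called lower with lane as a block (adjusted p = 0.0248, edgeR), by DESeq2 (0.0296) and by limma-voom (0.0217), and it was also called without the 3 libraries high in meningeal markers (0.0176, edgeR). Col9a2 was at 13.2, 10.7, 11.1 and 10.8 CPM in control and at 14.5, 13.2, 12.1 and 11.8 CPM in the mutant (log2 fold change 0.17, standard error 0.12, adjusted p = 0.274, edgeR). The other FACIT genes Col16a1, Col19a1, Col20a1 and Col22a1 did not pass, with log2 fold changes from -0.47 for Col22a1 to 0.27 for Col19a1. Without mutant replicate 3, Col16a1 (-0.39, adjusted p = 0.0335, edgeR) and Col22a1 (-0.68, adjusted p = 0.0237, edgeR) were called lower together with Col9a1, which made 7 lower collagens in place of 4.

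The largest rise of any collagen was in a transmembrane collagen. Collagens of this class stay in the cell membrane with a short part inside the cell and can be shed, and both Col13a1 and Col25a1 are known from the contact of motor nerve and muscle. Col13a1 (chromosome 10, from 61838236 to 61979108, minus strand) was at 0.552, 0.542, 0.996 and 0.451 CPM in control and at 8.46, 7.29, 4.20 and 7.94 CPM in the mutant. Even the lowest mutant library, replicate 3, was well above the highest control, which was also replicate 3. The rise was 10.7-fold (log2 fold change 3.42, standard error 0.29, adjusted p = 5.92e-06, edgeR), and it ran from 3.27 to 3.75 on the log2 scale with each library left out in turn. Col25a1 (chromosome 3, from 130131501 to 130599877) was at 11.1, 12.7, 9.63 and 6.70 CPM in control and at 30.1, 15.3, 21.4 and 22.5 CPM in the mutant. The groups did not overlap, and the rise was 2.23-fold (log2 fold change 1.16, standard error 0.22, adjusted p = 0.00225, edgeR). Col23a1, the third gene of the class, was at 27.6, 21.7, 21.5 and 22.2 CPM in control and at 25.7, 23.0, 22.5 and 32.3 CPM in the mutant (log2 fold change 0.16, standard error 0.13, adjusted p = 0.374, edgeR). The 2 called genes kept their call in all alternatives run, including those without the libraries high in Ttr or in meningeal markers.

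To set these rises beside the sequence in front of the genes, the 250 bases before the RefSeq start are given for Col13a1, Col25a1 and Col27a1, the 3 collagens that rose by at least 1 on the log2 scale and kept their call in all alternatives. They read 5′ to 3′ on the gene's strand (RefSeq, GRCm38.p6) at chr10:61979109-61979358 (minus strand), chr3:130180595-130180844 (plus strand) and chr4:63215162-63215411 (plus strand), and no annotated exon lies in them. The RefSeq starts of Col25a1 and Col27a1 lie downstream of the starts in the annotation used for the gene spans. Capitals mark the motif TATAAA (the TATA box), the motif CCAAT or the motif GGGCGG (a GC box), each searched on both strands, so that a GC box of the opposite strand is printed as CCGCCC:
Col13a1: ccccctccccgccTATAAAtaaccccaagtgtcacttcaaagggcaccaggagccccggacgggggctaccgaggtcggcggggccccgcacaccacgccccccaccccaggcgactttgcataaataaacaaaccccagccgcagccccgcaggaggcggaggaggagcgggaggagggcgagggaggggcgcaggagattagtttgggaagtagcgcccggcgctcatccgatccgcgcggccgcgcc
Col25a1: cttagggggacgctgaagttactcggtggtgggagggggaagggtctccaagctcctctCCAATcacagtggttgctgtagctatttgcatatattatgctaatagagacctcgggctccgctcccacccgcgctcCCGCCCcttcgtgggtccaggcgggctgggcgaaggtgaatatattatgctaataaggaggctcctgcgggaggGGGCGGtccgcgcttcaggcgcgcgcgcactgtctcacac
Col27a1: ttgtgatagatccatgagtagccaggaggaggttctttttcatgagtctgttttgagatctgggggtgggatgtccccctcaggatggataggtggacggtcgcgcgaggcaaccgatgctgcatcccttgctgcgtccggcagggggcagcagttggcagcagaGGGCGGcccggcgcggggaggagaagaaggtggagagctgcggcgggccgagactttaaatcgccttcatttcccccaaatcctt

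The 3 windows share no motif among those searched: Col13a1 holds TATAAA at its far end, Col25a1 holds CCAAT and GGGCGG, and Col27a1 holds GGGCGG. The promoter table had 38 windows of 35 collagen genes. TATAAA was in 5 of these 38 windows and in 12.4% of all 32851 windows of the same length, and CCAAT in 13 of 38 and in 33.8%. GGGCGG was in 22 of 38 and in 32.7% of all windows, a larger share among the collagens, which was not tested. The windows of Col6a2 overlap each other. A match is only a run of letters and shows no binding.

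Of the short chain network collagens, Col8a1 was at 4.78 to 6.01 CPM in control and 3.47 to 6.24 CPM in the mutant (log2 fold change -0.31, adjusted p = 0.208, edgeR), and its adjusted p was 0.0376 without mutant replicate 1. Col8a2, a chain of the corneal endothelial membrane, was at 1.52, 0.838, 1.69 and 1.01 CPM in control and at 3.55, 4.75, 1.16 and 0.392 CPM in the mutant (log2 fold change 0.92, standard error 0.67, adjusted p = 0.316, edgeR). Its 2 high libraries, mutant replicates 1 and 2, were those high in Ttr, and without them the log2 change was -0.73. Without mutant replicate 4 it was 1.30 (adjusted p = 0.0375, edgeR). Markers of the choroid plexus summed to 9.40 to 18.0 CPM in control and to 632, 1202, 27.2 and 13.8 CPM in mutant replicates 1 to 4, and their part in Col8a2 was not tested. Col26a1 (21.1 to 34.8 CPM) and Col28a1 (0.853 to 1.32 CPM), which belong to no larger class, did not pass.

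Since chains of 1 molecule are made by different genes, the ratio of their counts was followed for 5 pairs, which were chosen after values had been seen. The ratio Col4a1 to Col4a2 was 1.39, 1.28, 1.39 and 1.29 in control and 1.21, 1.21, 1.22 and 1.24 in the mutant, lower in every mutant library. Col6a1 to Col6a2 was 0.726, 0.877, 0.754 and 0.336 in control and 1.97, 1.22, 2.12 and 2.35 in the mutant, and Col5a1 to Col5a2 was 0.628 to 1.197 in control against 0.520 to 0.628 in the mutant. In these 3 pairs control and mutant libraries were separate (exact two-sided permutation over 70 arrangements, p = 0.0286, the smallest it allows, and 0.0476 adjusted over the 5 pairs), although the highest mutant and the lowest control ratio of Col5a1 to Col5a2 differed only in the fourth digit. Any pair with separate groups gives this p. The adjustment does not cover the choice of the 5 pairs, so these p-values add nothing to the separation itself. Col1a1 to Col1a2 was 0.320 to 0.575 in control against 0.520 to 0.676 in the mutant, and Col4a5 to Col4a6 was 3.05 to 4.69 against 4.60 to 6.56, both with overlapping groups (exact permutation test, p = 0.0857, and 0.0857 adjusted over the 5 pairs).

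Scaled to exon length (RPKM, the CPM value per kilobase of exon), the collagen transcripts of this tissue were led by basement membrane chains. The mean level over the 8 libraries was 19.3 RPKM for Col4a1 and 16.9 RPKM for Col4a2, followed by Col9a3 with 10.2, Col23a1 with 4.28 and Col9a2 with 3.94 RPKM. Type I and III chains were at 2.36 to 2.48 RPKM. Col4a1 fell from a mean of 23.4 to 15.1 RPKM and stayed the highest collagen in both groups, whereas Col6a1 went from 1.86 to 5.76 RPKM and Col13a1 from 0.138 to 1.51 RPKM. The lowest of the tested genes was Col4a3 with 0.0402 RPKM.

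Genes that fold, cut or bind collagen changed in both directions, at counts to be read against the 18.9% of all genes called lower and the 18.6% called higher. Of 20 genes for procollagen folding and modification 6 were lower and 4 higher (median log2 fold change 0.19), a split that became 2 lower and 10 higher when libraries were scaled by their totals, which shifted the median of all genes by 0.12. With 1 library left out, the higher calls ranged from 1 (without control replicate 2 or mutant replicate 2) to 8 (without mutant replicate 4) and the lower calls from 3 (without control replicate 2 or mutant replicates 1 or 2) to 7 (without mutant replicate 3). Without both libraries high in Ttr 1 gene was lower and 1 higher, where calls over all genes fell too. Creb3l1, a transcription factor known to drive secretion of procollagen, fell from 16.7 ± 1.26 to 8.07 ± 1.69 CPM (SD, n = 4; log2 fold change -1.05, standard error 0.15, adjusted p = 0.000236, edgeR). Fkbp14, a prolyl isomerase of the endoplasmic reticulum, rose (log2 fold change 0.89), and Mia3, which loads procollagen into transport carriers, fell (-0.32), a call that was lost without both libraries high in Ttr (adjusted p = 0.0813, edgeR) and without the 3 libraries high in meningeal markers (0.144). Serpinh1, the collagen chaperone HSP47, was at 54.3 ± 4.67 CPM in control and 67.4 ± 16.1 CPM in the mutant (SD, n = 4) and did not pass (adjusted p = 0.129, edgeR), though it was called higher without mutant replicate 4 (0.00386) and with library totals (0.0430). Among 13 genes for cleavage and crosslinking 4 were lower and 2 higher (median -0.21), and the higher calls were 1 by limma-voom, without any 1 of the control replicates, without mutant replicates 1 or 4 and without both libraries high in Ttr. Lox, the lysyl oxidase that crosslinks collagen fibres, was at 2.49, 0.937, 4.38 and 1.25 CPM in control and at 20.3, 14.5, 13.2 and 9.96 CPM in the mutant. Its groups did not overlap (log2 fold change 2.64, standard error 0.45, adjusted p = 0.00233, edgeR). Adamts3, a procollagen N-proteinase, fell from 51.1 ± 5.05 to 24.1 ± 3.78 CPM (SD, n = 4; log2 fold change -1.09, adjusted p = 3.55e-05, edgeR), and Bmp1, the C-proteinase, fell as well (log2 fold change -0.41), with an adjusted p of 0.0698 (edgeR) without the 3 libraries high in meningeal markers.

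Of 10 collagen receptors tested 3 were lower and 3 higher (median log2 fold change 0.12), where 37.5% of all genes were called in either direction. The higher calls fell to 1 without both libraries high in Ttr and to 1 without the 3 libraries high in meningeal markers, where calls over all genes fell too. Adgrg1 (GPR56), a receptor for type III collagen known from the pial surface of the developing cortex, was at 188, 177, 193 and 169 CPM in control and at 118, 108, 141 and 109 CPM in the mutant. All mutant libraries lay below all controls (log2 fold change -0.61, standard error 0.09, adjusted p = 0.000426, edgeR), while its ligand chain Col3a1 did not pass. The integrin chain Itga1 fell (-0.67) and Itga10 rose (0.87), the latter with an adjusted p of 0.0518 (edgeR) without the 3 libraries high in meningeal markers. Among the genes of collagen degradation 7 of 10 could be tested, and 2 inhibitors of metalloproteinases were lower, Timp2 (log2 fold change -0.49) and Timp3 (-1.56). By edgeR 0 genes of that list were called higher (0 also at an unadjusted p under 0.05, by DESeq2 and by limma-voom), and 1 without control replicate 1. Mmp14, a membrane-bound collagenase, gave -0.28 and did not pass, but it was called lower with lane as a block (adjusted p = 0.0342, edgeR), without mutant replicate 3 (0.0150) and without the 3 libraries high in meningeal markers (0.0323), and Mmp1a was at 0 counts in all 8 libraries.

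Of 14 partners of type IV collagen in basement membranes 6 were lower, 1 was higher and 7 did not pass (median log2 fold change -0.37), where 18.9% of all genes were called lower and 18.6% higher. The laminin chains Lama2 and Lama4 fell by 1.01 and 0.61 on the log2 scale (adjusted p = 0.00189 and 0.00180, edgeR), and Lamb2 rose by 0.71 (adjusted p = 0.000487, edgeR). Sparc, a secreted collagen-binding protein, was at 255 ± 23.1 CPM in control and 217 ± 63.5 CPM in the mutant (SD, n = 4) and did not pass (adjusted p = 0.378, edgeR). The summed level of the 14 partners was 1251 to 1415 CPM in control and 1060 to 1243 CPM in the mutant, without overlap.

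**Figure D5:**
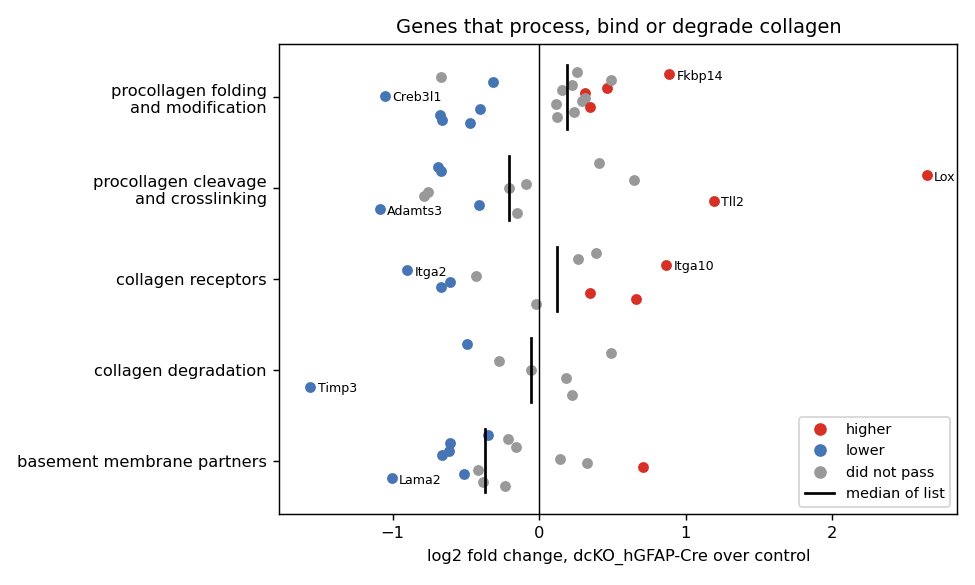
Log2 fold change, dcKO_hGFAP-Cre over control (x axis), for the tested genes of 5 lists on the y axis, with red points called higher, blue points called lower, grey points not passed and a black bar at each list's median. Lox stands alone at 2.64, and the basement membrane partners have the lowest median of the 5 lists at -0.37.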

How the data were processed

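Per the labels, total RNA of 8 P3 cortices was isolated with TRIZOL and libraries were made with the TruSeq kit. The authors aligned reads to mm10 and counted them per gene with featureCounts, and the deposited values are raw counts per Ensembl gene without normalization. The aligner, annotation, strand setting and treatment of ambiguous reads are not given in the sources used here. Without a strand setting, reads of overlapping genes cannot be told apart.

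Of 48709 gene identifiers 48349 matched GENCODE M21, which gave symbols, positions and exon lengths. Counts were TMM-scaled and tested with edgeR (version 4.0.16, R version 4.3.3; robust quasi-likelihood F test, group as the only term) on genes that passed filterByExpr with a minimum count of 10. P-values were adjusted by Benjamini-Hochberg over 16525 genes, with a threshold of 0.05. Standard errors were derived from the log2 change and the F value. Exact permutation tests over 70 arrangements allow no p below 0.0286. DESeq2 (version 1.42.0), limma-voom (version 3.58.1), other scalings and filters, lane and replicate blocks and left-out libraries were alternatives. The test was tried on simulated data first. No pair of replicates of a group agreed within counting noise (chi-square per degree of freedom 9.45 to 53.3).

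The collagen genes, their classes and all gene lists were chosen with earlier results of these data known. Values per library are given for fibrillar and type IV chains, for collagens called with a log2 change of at least 1 and for the 5 with the highest RPKM; further collagens of the called or overlapping kind were added after their values were seen. In each pathway list the 3 genes with the smallest p are named, plus Adgrg1, Serpinh1 and Sparc. Marker lists are described by counts, sums and their most abundant genes, and Cspg4 is named because lists share it.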

Additional observations from a re-analysis of the deposited data

Results flagged for a closer look

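In 5 of the 88 groups of 4 libraries examined (44 collagens in 2 groups of mice), 1 library stood farther from the rest than Dixon's 95% limit, where chance alone gives about 4.4. Col1a1 was at 27.2 CPM in control replicate 3, with the next control at 7.18 CPM, and that library was also the control highest in meningeal markers. Control replicate 1 was the highest control for Col15a1 (28.3 CPM, next 17.8), Col23a1 (27.6 CPM, next 22.2) and Col9a2 (13.2 CPM, next 11.1). Col19a1 was at 13.9 CPM in dcKO_hGFAP-Cre replicate 4, with the next mutant at 8.17 CPM. None of these 5 genes was called between the groups, and the cause was not tested.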

How the results depend on the processing

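Of the 16 called collagens, 8 kept their call under all 18 alternatives (Col12a1, Col13a1, Col25a1, Col27a1, Col2a1, Col4a1, Col4a2 and Col9a3). Called collagens that kept their call numbered 16 with DESeq2, limma-voom, DESeq2's size factors and at least 10 counts in every library, 15 with library totals, 13 without a filter, and 12 to 15 with 1 library left out. The summed log2 difference stayed between 0.31 and 0.67 for the fibrillar and between -0.53 and -0.33 for the type IV chains. With 1 library left out, 3 to 7 collagens were lower (7 without mutant replicate 3) and 9 to 12 higher. Without both libraries high in Ttr 7 were higher, and also 7 without the 3 libraries high in meningeal markers. Higher calls over all genes fell as well in these settings, from 3074 to 1388 and 1489. The cause was not tested. Every change of sign was in a gene that was not called. Among these, library totals gave 0.0029 for Col20a1. With 1 library left out, log2 fold changes ran from -0.30 to 0.14 for Col5a1, -0.26 to 0.048 for Col6a5, -0.27 to 0.065 for Col20a1, -0.29 to 0.029 for Col18a1, -0.031 to 0.30 for Col11a1, -0.047 to 0.97 for Col1a2, -0.052 to 0.22 for Col26a1, -0.17 to 0.32 for Col6a2, -0.015 to 0.38 for Col19a1 and -0.42 to 0.079 for Col4a3. Without the Ttr libraries Col20a1 was 0.045, Col26a1 -0.062, Col6a2 -0.15 and Col8a2 -0.73. Without the meningeal libraries Col1a2 was -0.39, Col26a1 -0.014, Col3a1 -0.044 and Col6a2 -0.18. Over all genes, 3128 lower and 3074 higher calls became 2102 and 4584 with library totals. The replicate number as a block gave 5 lower and 13 higher collagens and kept all 16 calls, adding Col9a1 (adjusted p = 0.0307) and Col7a1 (0.0379), and Mmp14 (0.0428) among the listed genes. The deviations of same-numbered libraries correlated at 0.17, -0.07, 0.21 and -0.02, and 2 of the 8 libraries (control replicate 3 and mutant replicate 1) correlated best with their own number, so the numbers were not taken to pair the libraries. Collagens under 1 CPM, such as Col4a3, rest on few counts.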
